A study of Mus musculus with 30 samples.

Results

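The Dlk1-Dio3 imprinted cluster lies on mouse chromosome 12 and was followed here through 6 of its genes, Dlk1, Rtl1, Dio3, Meg3, Rian and Mirg. They were chosen by name, and all 6 were found among the 35275 entries of the bulk RNA-seq table. At an imprinted cluster the copies inherited from the father and the mother are used differently. Dlk1, Rtl1 and Dio3 code for proteins and are known to be expressed from the paternal chromosome, while Meg3, Rian and Mirg are long non-coding RNAs expressed from the maternal one. A differentially methylated region between Dlk1 and Meg3 controls both sides, and loss of the maternal RNAs is a known feature of some induced pluripotent cell lines. The values below are RNA levels summed over both parental copies, so they do not show which copy was read.

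The study reprogrammed mouse embryonic fibroblasts to pluripotency with small molecules, through an extraembryonic endoderm-like (XEN-like) state. It held 30 samples, of which 14 were bulk RNA-seq libraries; the 12 single-cell and 4 bisulfite samples were not analysed here. Each condition had 1 library, so no difference below has a replicate check, no p-value is given, and intervals cover counting error only. In bulk RNA, fewer cells of a type and less RNA per cell cannot be told apart.

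The fibroblasts (MEF) came from E13.5 embryos. The XEN-like library was from purified lines in stage I medium, VC6TFAE with 20 ng/ml bFGF. Intermediate cells came in 7 unsorted libraries and 3 sorted ones. Cells were replated at day 12 of the protocol, entered stage II at day 16 and stage III at day 28. Stage II was sampled at its day 12 in N2B27, in FBS/KSR, and after sorting for OG+PDGFRAlow/-PECAM- cells, whose stage II medium the labels do not give. For the N2B27 route the cells were replated onto mitomycin-treated fibroblast feeders, and no feeder step is given for FBS/KSR. Stage III was sampled at day 6, day 15 and day 21, and at day 4 with Opt. VPA or without it (Control); VPA, valproic acid, is a histone deacetylase inhibitor. The end point was CiPSC line #1, a single line of chemically induced pluripotent stem cells. All of these cells carried the strain label C57BL/6J-Tg(GOFGFP)11Imeg/RbrcxICR, with a misprinted letter in most of the labels. Embryonic stem cells (ESC), from an E3.5 embryo of ICR x ICR, were of a different strain. CiPSC and ESC were both kept on fibroblast feeders in medium with LIF (10 ng/ml) and the kinase inhibitors PD0325901 (1 µM) and CHIR99021 (3 µM). The pZscan4c-Em+ and pZscan4c-Em- libraries were sorted at stage II day 12 from a reprogramming of XEN-like cells that were made from 129S6/SvEvTac x C57BL/6Ncr reporter ESC, not from fibroblasts.

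The libraries held between 6601290 and 15294927 reads, as recovered from the steps of the FPKM values (fragments per kilobase of gene, scaled to library size). Markers followed the labels in the libraries most used here. The summed level of 14 extraembryonic endoderm markers was 11274 FPKM in XEN-like cells, against 5266 FPKM in MEF, where Hnf4a was at 0. Sparc alone gave 4133 FPKM of the sum in XEN-like cells and 4632 FPKM in MEF. By the 2-fold rule given below, 13 of the 14 were higher in XEN-like cells and 0 lower, against 18.8% and 17.5% of all entries. Pou5f1, a core pluripotency factor, had 756 FPKM in CiPSC and 616 FPKM in ESC, and was at 0 in XEN-like cells and MEF. The sum of 16 fibroblast markers was 7.86 FPKM in CiPSC and 11.7 FPKM in ESC, against 21933 FPKM in MEF. Of the stage III libraries, the sum lay between 449 and 1158 FPKM. The 12 two-cell-like markers summed to 7101 FPKM in pZscan4c-Em+ cells and 216 FPKM in pZscan4c-Em- cells.

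In the RefSeq annotation of GRCm38.p6, the build that UCSC calls mm10, the cluster ran over 829 kb. Dlk1 was at chr12:109452485-109463336, Meg3 at chr12:109540996-109571729, Rtl1 at chr12:109564900-109604418, Rian at chr12:109603945-109661716, Mirg at chr12:109734981-109749458 and Dio3 at chr12:110279230-110281097. Between the outer ends of Dlk1 and Dio3 the annotation held 103 entries, of which 61 were miRNA genes, 19 snoRNA genes, 16 long non-coding RNAs and 3 coding genes. Among them 7 were entries of the table, the 6 cluster genes and Dio3os, a non-coding RNA next to Dio3. No miRNA gene was an entry, so the small RNAs of the cluster were not measured. The span of Rtl1 overlapped the ends of Meg3 and Rian and held 15 miRNA genes. Since no source used here gives the strandedness of the counting, reads of Rtl1 and of RNA antisense to it cannot be told apart.

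**Figure D1:**
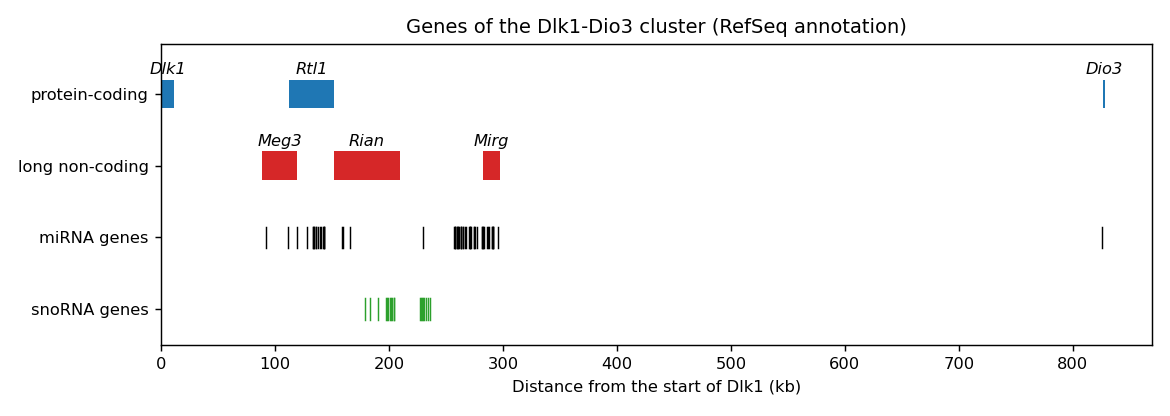
Genes of the cluster in the RefSeq annotation, with distance from the start of Dlk1 in kb along the horizontal axis and gene classes as rows. Blue bars are the coding genes Dlk1, Rtl1 and Dio3, red bars are the long RNAs Meg3, Rian and Mirg, and ticks mark 61 miRNA genes and 19 snoRNA genes, most of them between Meg3 and the end of Mirg.

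The promoters of Meg3 and Dlk1 are shown because these genes sit on either side of the imprinting control region and their RNAs differed in pattern. RefSeq windows of GRCm38.p6 reach from 250 bases before to 50 bases after a start site, both here on the plus strand, and capitals mark each CG dinucleotide, the target of DNA methylation. The Meg3 window, for the first of its 2 annotated starts, is chr12:109540746-109541045, and the Dlk1 window is chr12:109452573-109452872. RefSeq's promoter table puts the Dlk1 start site 338 bases inside the annotated gene span, so the whole Dlk1 window lies within that span.
Meg3: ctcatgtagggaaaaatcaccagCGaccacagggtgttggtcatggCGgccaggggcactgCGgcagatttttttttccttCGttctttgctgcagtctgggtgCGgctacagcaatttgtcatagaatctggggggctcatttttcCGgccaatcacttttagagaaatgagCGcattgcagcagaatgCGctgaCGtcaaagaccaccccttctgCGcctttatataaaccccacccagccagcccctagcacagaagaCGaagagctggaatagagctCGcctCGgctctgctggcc
Dlk1: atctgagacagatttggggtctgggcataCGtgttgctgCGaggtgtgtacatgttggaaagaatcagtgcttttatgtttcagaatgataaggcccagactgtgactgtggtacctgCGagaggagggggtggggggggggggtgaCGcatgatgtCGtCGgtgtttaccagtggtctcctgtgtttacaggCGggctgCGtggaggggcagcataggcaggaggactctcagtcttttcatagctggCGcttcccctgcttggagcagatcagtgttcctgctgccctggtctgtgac
The Meg3 window held 13 CG dinucleotides and the Dlk1 window 9, against a median of 7 over 32851 promoters of the same length. Rian had 0, Mirg 10, Dio3 25 and Dio3os 53. The window at the second Meg3 start had 1. Each of 3 motifs was searched on both strands. The letters TGACGT, the core of the cAMP response element, were found in the Meg3 window on each strand, as 1 overlapping palindrome; 7.51% of all promoters held them. The TATA box letters TATAAA were found there on each strand too, in overlapping letters, and are in 13.6% of promoters. TGCCGC, the hexamer bound by the imprint-protecting factor ZFP57 when methylated, was found 1 time in the Meg3 window, on the minus strand, and is in 11.6% of promoters. None of these 3 motifs was in the Dlk1 window. The Rtl1 promoter was not used here.

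Mirg is a precursor transcript whose span held 10 miRNA genes, and 30 more lay between Rian and Mirg. RefSeq gave 114 mature miRNAs from 61 hairpins of the cluster, with 104 distinct seeds. Only 9 seeds, bases 2 to 8, were shared by miRNAs of different names, each by 2. The miRNA mmu-miR-3070-5p, given for both Mir3070a and Mir3070b, stands 2 times among the 114 and was not counted as sharing its seed. The pair below with both genes inside Mirg, and the pair with 1 of its genes there, are shown with the seed in capitals. Mirg spans the genes of all but mmu-miR-494-5p. Whether the level of Mirg follows their production was not tested.
mmu-miR-453: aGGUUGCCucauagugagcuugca
mmu-miR-496a-5p: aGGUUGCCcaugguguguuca
mmu-miR-494-5p: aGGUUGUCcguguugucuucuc
mmu-miR-410-5p: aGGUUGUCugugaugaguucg

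Meg3, a long RNA known as a growth suppressor, was abundant in MEF and in every intermediate, and was lowest in the pluripotent lines. Along the route it had 323 FPKM in MEF, 302 FPKM in XEN-like cells, 243 FPKM in stage II N2B27, 344, 350 and 239 FPKM at stage III day 6, day 15 and day 21, and 44.7 FPKM in CiPSC. ESC had 70.6 FPKM. The other stage II libraries had 440 FPKM (OG+PDGFRAlow/-PECAM- sorted) and 461 FPKM (FBS/KSR), and the day 4 pair had 156 FPKM with Opt. VPA and 200 FPKM in the Control. CiPSC and ESC thus stood below all 12 other libraries, and these span 156 to 461 FPKM. Within the table Meg3 ranked between entry 179 (FBS/KSR) and entry 2652 (CiPSC) by level. Of the 13 steps between neighbours in its order of libraries, 2 were within counting error.

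Rian, the host of a series of C/D box snoRNAs, was also lowest in CiPSC, but its high end differed. It had 515 FPKM in MEF, 633 FPKM in XEN-like cells, 327 FPKM in stage II N2B27, 388, 384 and 371 FPKM at stage III day 6, day 15 and day 21, and 141 FPKM in CiPSC. ESC had 275 FPKM. The OG+PDGFRAlow/-PECAM- cells had 407 FPKM, FBS/KSR 522 FPKM, Opt. VPA 172 FPKM, the Control 174 FPKM, pZscan4c-Em+ 257 FPKM and pZscan4c-Em- 320 FPKM. XEN-like cells were highest and CiPSC lowest, and ESC lay inside the range of the intermediates, above both day 4 libraries. In 5 of 13 neighbouring steps the difference was within counting error.

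Mirg was the least abundant of the 3 long RNAs. It had 23.1 FPKM in MEF, 44.2 FPKM in XEN-like cells, 41.6 FPKM in stage II N2B27, 32.3, 30.6 and 33.2 FPKM at stage III day 6, day 15 and day 21, and 13.1 FPKM in CiPSC. ESC had 16.3 FPKM. The OG+PDGFRAlow/-PECAM- cells had 49.7 FPKM, FBS/KSR 42.2 FPKM, Opt. VPA 15.7 FPKM and the Control 16.7 FPKM. The low end held CiPSC, ESC and both day 4 libraries, and MEF stood below XEN-like and stage II cells. For Mirg, 8 of 13 neighbouring steps were within counting error.

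Dlk1 encodes a transmembrane ligand related to the Notch ligands that holds back adipocyte differentiation, and it had the widest range of the cluster, 757-fold. It had 456 FPKM in MEF, 25.9 FPKM in XEN-like cells, 7.52 FPKM in stage II N2B27, 1.20, 1.12 and 1.95 FPKM at stage III day 6, day 15 and day 21, and 3.29 FPKM in CiPSC. ESC had 1.08 FPKM. The OG+PDGFRAlow/-PECAM- cells had 3.21 FPKM, FBS/KSR 8.55 FPKM, Opt. VPA 2.48 FPKM and the Control 0.602 FPKM. The pZscan4c-Em+ cells had 5.88 FPKM and the pZscan4c-Em- cells 5.11 FPKM. In MEF Dlk1 ranked at entry 202 by level, 17.6-fold above XEN-like cells, which in turn stood above the rest. Of the 13 neighbouring steps, 10 were within counting error, with as few as 8 reads (Control) behind a value.

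Dio3 encodes the deiodinase that inactivates thyroid hormone. It was low everywhere and highest in 1 stage II library. It had 1.35 FPKM in MEF, 1.49 FPKM in XEN-like cells, 8.54 FPKM in stage II N2B27, 4.16, 2.34 and 1.76 FPKM at stage III day 6, day 15 and day 21, and 0.95 FPKM in CiPSC. ESC had 2.18 FPKM. The OG+PDGFRAlow/-PECAM- cells had 2.86 FPKM, FBS/KSR 0.601 FPKM, Opt. VPA 1.98 FPKM, the Control 2.09 FPKM, pZscan4c-Em+ 0.948 FPKM and pZscan4c-Em- 0.465 FPKM. Stage II N2B27 lay above the 95% interval of every other library, and stage III day 6 came next. The other 12 of 13 neighbouring steps were within counting error. Its neighbour Dio3os never reached 1 FPKM; its highest level was 0.932 FPKM, also in stage II N2B27, on 9 reads.

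Rtl1, a gene derived from a retrotransposon and needed for the placenta, reached 1 FPKM in MEF alone. It had 1.17 FPKM in MEF on 73 reads, and 0.191 (Control) to 0.636 (pZscan4c-Em-) FPKM elsewhere. CiPSC had 0.411 FPKM, ESC 0.477 FPKM and XEN-like cells 0.520 FPKM. All neighbouring steps but 1 of 13 were within counting error, so neighbouring libraries below MEF cannot be ordered. Some wider gaps can be read. The intervals of Opt. VPA (0.103 to 0.368 FPKM) and the Control (0.0823 to 0.376 FPKM) lay below 2 others. These were FBS/KSR (0.471 to 0.794 FPKM) and pZscan4c-Em- (0.443 to 0.885 FPKM).

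**Figure D2:**
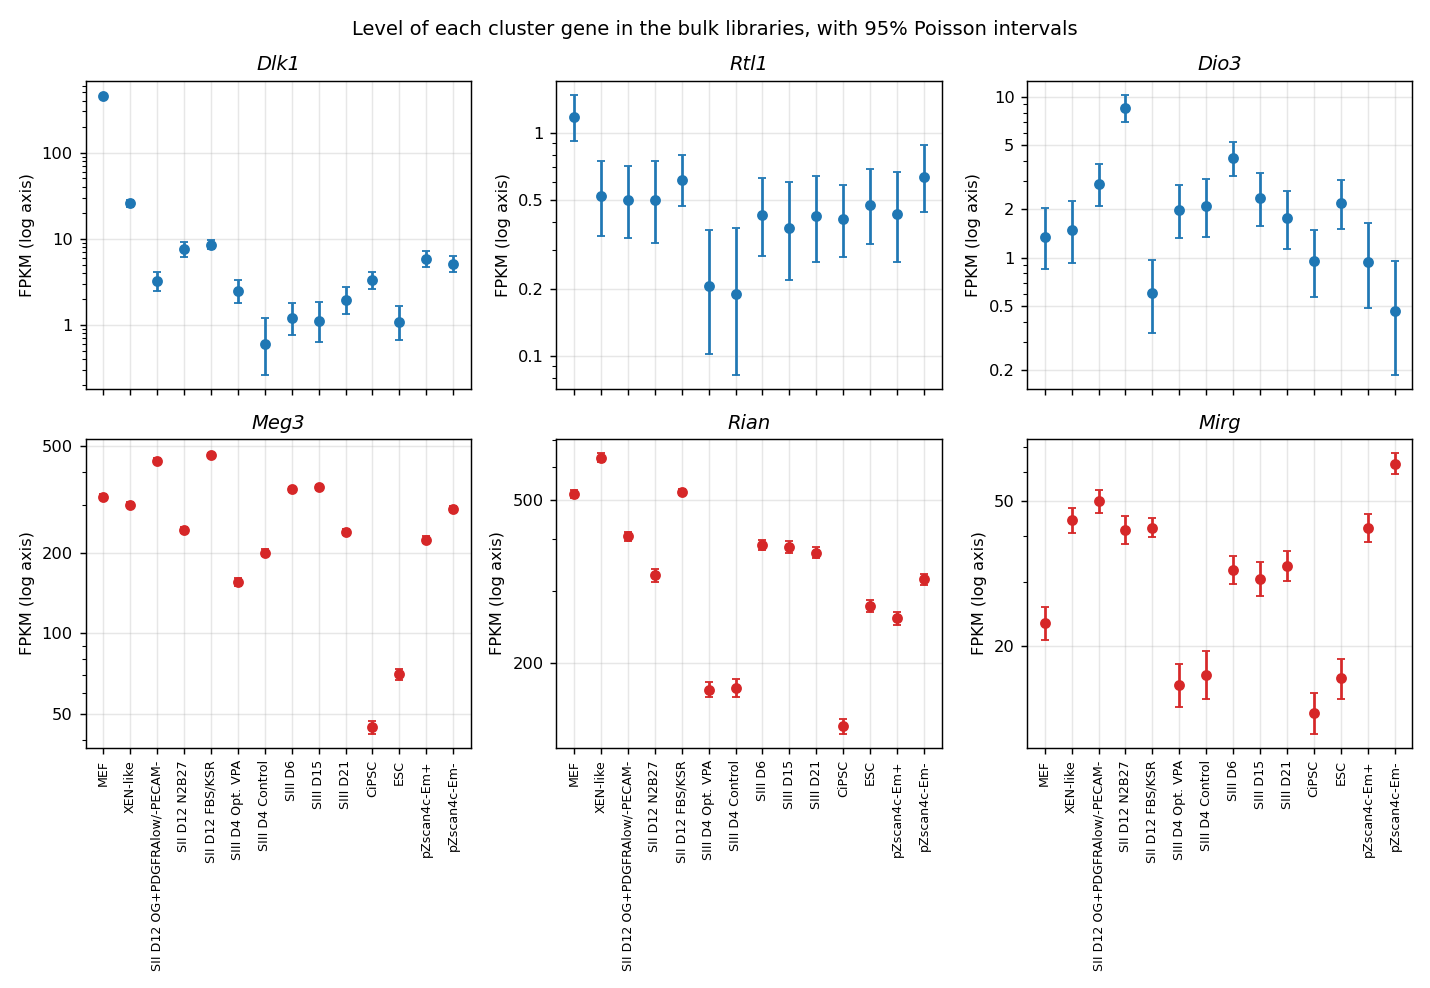
Level of each cluster gene in FPKM (log axis, scale differs by panel) in the 14 libraries along the horizontal axis. Points are the deposited values of single libraries and bars are 95% Poisson intervals of the reads. Dlk1 is at 456 FPKM in MEF and at most 25.9 FPKM elsewhere, whereas Meg3 is lowest in CiPSC (44.7 FPKM) and ESC (70.6 FPKM).

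In the first step, XEN-like cells against MEF, Dlk1 was the 1 cluster gene to change by the rule used for all comparisons, a difference of at least 1 in log2(FPKM + 1), or 2-fold on that scale, among entries at 1 FPKM or more in either library. Its level was 17.6-fold lower in XEN-like cells, with a 95% counting interval of 16.0 to 19.4 (25.9 FPKM on 442 reads in XEN-like cells, 456 FPKM on 8973 reads in MEF). None of the 6 was called higher. Over all 13360 entries tested, 17.5% were lower and 18.8% higher, so 1 of 6 lower is about the share that any entry had. Mirg came close, at 1.92-fold higher in XEN-like cells (interval 1.68 to 2.19). Rtl1 was 2.26-fold lower as a plain ratio (1.44 to 3.63), on 28 reads in XEN-like cells and 73 in MEF, but -0.52 in log2(FPKM + 1), which was not a call; with a pseudocount of 0.1 it passed. Rian was 1.23-fold higher (1.19 to 1.27), and Meg3 had 0.935 of its MEF level (0.906 to 0.965). The reads of the cluster were almost wholly non-coding outside MEF. Meg3, Rian and Mirg held 96.8% of the reads of the 6 genes in XEN-like cells and 63.6% in MEF.

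Stage II gave a further drop of Dlk1 and a Dio3 level that differed between the media. In N2B27 Dlk1 was 3.45-fold lower than in XEN-like cells (2.80 to 4.28), and Dio3 was 5.72-fold higher (3.60 to 9.50; 112 reads in N2B27, 22 in XEN-like cells). Of the 5 cluster genes tested there, 1 was lower and 1 higher, against 8.56% and 17.7% of all entries. Rian was 1.94-fold lower in N2B27 (1.86 to 2.02), at -0.95 in log2 just short of a call, and passed at -1.04 on the TPM scale, which gives each library the same sum. In FBS/KSR Dlk1 was 3.03-fold lower than in XEN-like cells (2.60 to 3.55), the 1 call among 5, with 10.3% of all entries lower and 16.1% higher. Dio3 there had 0.403 of its XEN-like level (0.198 to 0.803), which was not a call.

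The media were also set against each other. Dio3 was 14.2-fold higher in N2B27 than in FBS/KSR (8.37 to 25.7), on 112 reads in N2B27 and 16 in FBS/KSR. It was the 1 call among 5 cluster genes, with 10.7% of all entries higher and 7.3% lower. Meg3 in N2B27 had 0.526 of its FBS/KSR level (0.510 to 0.543), or -0.92 in log2, just short of a call; on the TPM scale it passed, at -1.02. Rian had 0.626 of it (0.603 to 0.651), and Mirg 0.986 (0.886 to 1.10). Of 14 extraembryonic endoderm markers 7 were lower in N2B27 and 0 higher, with sums of 3838 FPKM in N2B27 and 16530 FPKM in FBS/KSR. Of 10 trophoblast markers 7 were lower and 2 higher, with sums of 143 FPKM in N2B27 and 301 FPKM in FBS/KSR. Their part in the differences was not tested. A feeder step is given for the N2B27 route only, and plating density differed as well. Neither can be told apart from the medium.

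Cells sorted as OG+PDGFRAlow/-PECAM- had less Dlk1 and Dio3 than the unsorted N2B27 culture. Dlk1 was 2.34-fold lower (1.70 to 3.25) and Dio3 2.98-fold lower (2.10 to 4.29), 2 of 5 cluster genes, against 12% of all entries lower and 12% higher. The Dlk1 call, at -1.01 in log2, was lost at -0.94 when libraries were scaled by the median of ratios. Meg3 was 1.81-fold higher in the sorted cells (1.75 to 1.87), below the threshold. Whether the sorted cells had been kept in N2B27 or FBS/KSR is unknown, so sort and medium cannot be told apart here. Dlk1 was also lower than in FBS/KSR, at 3.21 FPKM in the sorted cells and 8.55 FPKM in FBS/KSR. Dio3 went the other way, at 2.86 FPKM in the sorted cells and 0.601 FPKM in FBS/KSR. Meg3 had 440 FPKM in the sorted cells and 461 FPKM in FBS/KSR. Pdgfra, 1 of the genes used for the sort, had 17.8 FPKM in the sorted cells and 77.9 FPKM in N2B27. Of 10 trophoblast markers 9 were higher in the sorted cells and 1 lower, with sums of 950 FPKM there and 143 FPKM in N2B27. Of 16 fibroblast markers 11 were lower and 0 higher, with sums of 57.3 FPKM in the sorted cells and 210 FPKM in N2B27. Pdgfra is 1 of these 16 and is among the 11 lower, so the count and the sums are not independent of the sort. The part of both lists in the differences was not tested. The reporter pair differed less. Between pZscan4c-Em+ and pZscan4c-Em- cells 0 of 4 cluster genes tested were called, against 8.37% of all entries higher and 5.15% lower. The 3 long RNAs were each lower in pZscan4c-Em+ cells beyond counting error. Mirg had 42.0 FPKM in pZscan4c-Em+ and 63.1 FPKM in pZscan4c-Em- cells, its highest level anywhere, and Meg3 had 223 FPKM in pZscan4c-Em+ and 291 FPKM in pZscan4c-Em- cells. Mitochondrial genes took 7.19% of summed FPKM in pZscan4c-Em+ and 14.2% in pZscan4c-Em- cells, against 1.60 to 5.20% in the other libraries; their part in the result was not tested.

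Entry into stage III brought Dlk1 to its low level. At stage III day 6 it was 6.27-fold lower than in stage II N2B27 (3.98 to 10.3), the 1 call among 5, with 8.98% of all entries lower and 9.99% higher. Against FBS/KSR it was 7.13-fold lower (4.65 to 11.4) and Dio3 was 6.92-fold higher (3.97 to 12.8), 1 call each way among 5, with 2.01% of all entries lower and 6.05% higher. The labels do not say which stage II medium preceded the stage III libraries. Both day 4 libraries had less Meg3, Rian and Mirg than day 6, where these made up 0.152% of all reads, against 0.0684% with Opt. VPA and 0.0807% in the Control. With Opt. VPA, Dlk1 was 4.12-fold higher than in the Control (1.91 to 10.2), on 42 reads with Opt. VPA and 8 in the Control. It was the 1 call among 5, with 5.77% of all entries higher and 3.28% lower. Meg3 with Opt. VPA had 156 FPKM, against 200 FPKM in the Control, and Rian and Mirg were within counting error of it.

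No cluster gene was called between day 6 and day 15 or between day 15 and day 21 of stage III. Day 15 against day 6 gave 0 calls among 5 cluster genes, with 6.23% of all entries higher and 5.02% lower. Meg3, Rian, Mirg and Dlk1 were all within counting error there, while Dio3 at day 15 had 0.563 of its day 6 level (0.352 to 0.881). Day 21 against day 15 gave 0 calls too, with 1.72% of all entries higher and 7.5% lower. Meg3 at day 21 had 0.683 of its day 15 level (0.659 to 0.708), while Rian and Mirg stayed within counting error.

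The long RNAs dropped between stage III day 21 and CiPSC. Meg3 was 5.34-fold lower in CiPSC (5.03 to 5.67), Rian 2.64-fold lower (2.51 to 2.78) and Mirg 2.53-fold lower (2.16 to 2.97). These were 3 of 5 cluster genes tested, against 15.4% of all entries lower and 4.88% higher, and the median entry lay at -0.18 in log2. Dlk1 was not called, at 3.29 FPKM in CiPSC and 1.95 FPKM at day 21. Of all library reads, Meg3, Rian and Mirg together took 0.0336% in CiPSC (exact interval 0.0325 to 0.0346), against 0.121% at day 21 (0.119 to 0.123). The day 21 library still held endoderm markers. Gata4, an endoderm factor, had 3.00 FPKM in CiPSC and 51.1 FPKM at day 21, and the 14 extraembryonic endoderm markers summed to 261 FPKM in CiPSC and 4083 FPKM at day 21. Their part in the difference was not tested.

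Between the pluripotent lines, CiPSC had more Dlk1 and less of the long RNAs than ESC. Dlk1 was 3.05-fold higher in CiPSC (1.85 to 5.28), on 76 reads in CiPSC and 20 in ESC, and was the 1 call among 5, with 1.79% of all entries higher and 4.77% lower. Rian in CiPSC had 0.511 of its ESC level (0.485 to 0.539), Meg3 0.634 (0.590 to 0.680) and Mirg 0.804 (0.671 to 0.963). None of these 3 was called as deposited, but all lay beyond counting error. Rian, at -0.96 in log2, passed at -1.09 on the TPM scale. Strain differs between the lines as well, and 1 line of each was sequenced, so line, strain and derivation cannot be told apart. CiPSC did keep Meg3 RNA at 44.7 FPKM (1389 reads), Rian at 141 FPKM and Mirg at 13.1 FPKM.

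Over the whole route, CiPSC against MEF, 3 of 6 cluster genes were lower, where 25.3% of all entries were lower and 25.8% higher. Dlk1 was 139-fold lower (111 to 176), Meg3 7.23-fold lower (6.83 to 7.65) and Rian 3.66-fold lower (3.49 to 3.85). Mirg was not called as deposited and passed at -1.09 on the TPM scale. XEN-like cells were also set against ESC. Dlk1 was 24.1-fold higher in XEN-like cells (15.4 to 39.8), Meg3 4.28-fold (4.06 to 4.51), Mirg 2.71-fold (2.33 to 3.16) and Rian 2.30-fold (2.21 to 2.40). These were 4 of 5 cluster genes tested, against 19.7% of all entries higher and 18.5% lower. Comparisons that share a library, such as those with XEN-like cells or CiPSC, are not independent of each other.

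**Figure D3:**
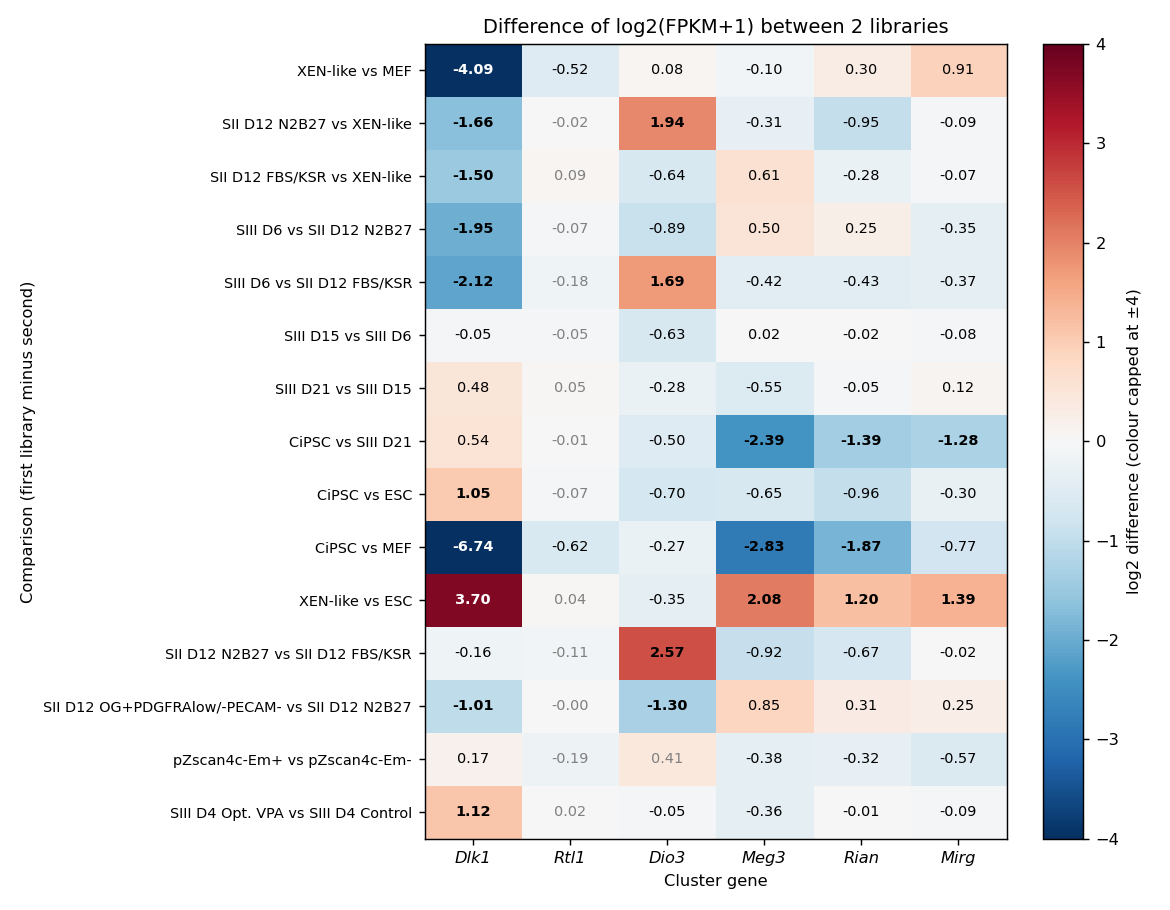
Difference in log2(FPKM + 1) of each cluster gene (columns) in 15 comparisons of single libraries (rows, first library minus second), with red higher and blue lower in the first. Bold values are at least 2-fold apart and grey values were under 1 FPKM in both libraries. Dlk1 is -4.09 in XEN-like cells against MEF, while Meg3 (-2.39), Rian (-1.39) and Mirg (-1.28) are lower in CiPSC against stage III day 21.

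Within a library, the ratio of 2 genes does not depend on its scaling. The level of Dlk1 over Meg3 was 1.41 in MEF (1.37 to 1.46), 0.0858 in XEN-like cells, 0.0309 in stage II N2B27, 0.00348, 0.00320 and 0.00815 at stage III day 6, day 15 and day 21, and 0.0735 in CiPSC (0.0576 to 0.0926). ESC had 0.0152 (0.00929 to 0.0236). MEF alone had more Dlk1 than Meg3, and the ratio was higher in CiPSC than in ESC with intervals that do not overlap. Rian over Meg3 was 3.14 in CiPSC (2.94 to 3.37) and 3.90 in ESC (3.68 to 4.13), against 0.871 (Control) to 2.10 (XEN-like cells) in the other 12 libraries. The 2 pluripotent lines thus had the highest Rian for their Meg3. Mirg over Meg3 was highest there too, at 0.293 in CiPSC (0.255 to 0.336) and 0.231 in ESC (0.201 to 0.264), and lowest in MEF at 0.0714. For this ratio the ESC interval overlapped that of pZscan4c-Em- cells, at 0.217 (0.202 to 0.232). Levels between genes rest on the gene length behind each FPKM, which was 2703 bases for Meg3, 1375 for Rian, 1633 for Mirg and 2012 for Dlk1. Rian spans 57.8 kb in RefSeq, so its level per length depends on that choice, but the change of a ratio between libraries does not.

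**Figure D4:**
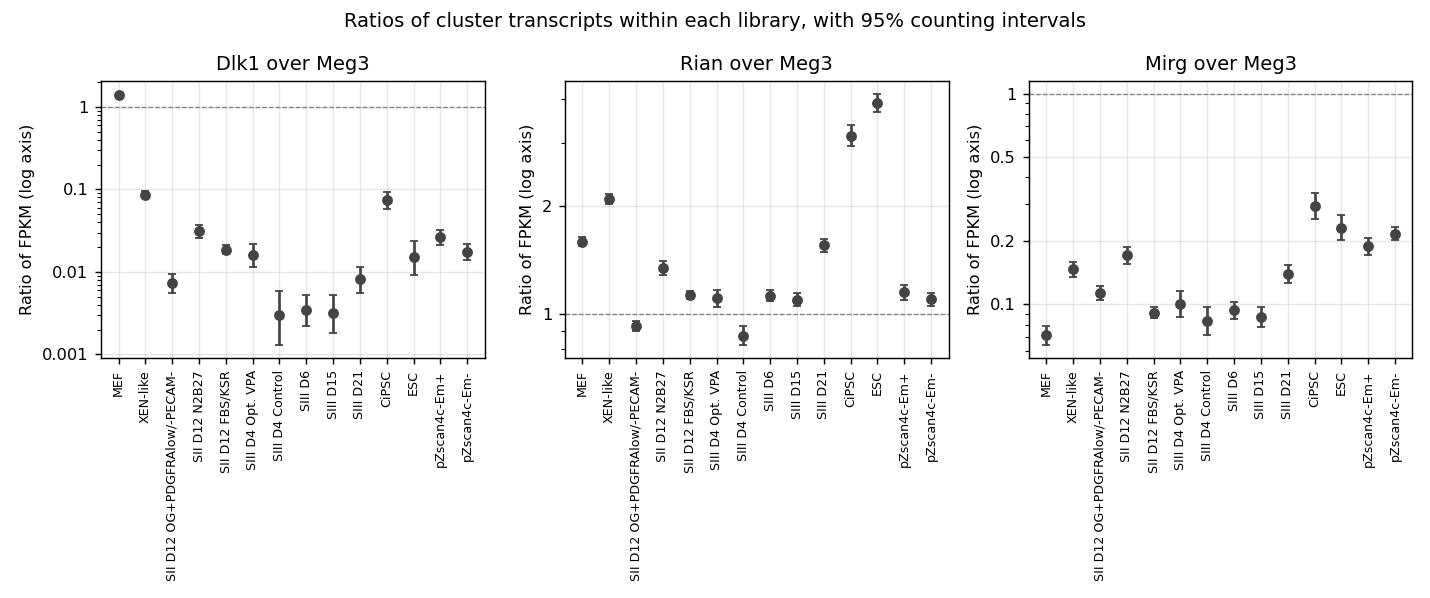
Ratios of FPKM within each library for Dlk1, Rian and Mirg over Meg3 (log axes, dashed line at 1), with 95% counting intervals, in the 14 libraries along the horizontal axis. Dlk1 over Meg3 is 1.41 in MEF and at most 0.0858 elsewhere, and Rian over Meg3 is highest in CiPSC (3.14) and ESC (3.90).

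Over the 14 libraries, which share 1 table and its scaling, the long RNAs varied together. Pearson's r of log2(FPKM + 1) was 0.74 between Meg3 and Rian, 0.75 between Meg3 and Mirg, and 0.67 between Rian and Mirg. Dlk1 had an r of 0.27 with Meg3, 0.51 with Rian and 0.16 with Mirg. Without MEF these were 0.26, 0.50 and 0.56, so the low r with Mirg rested in part on that library. Rtl1 had 0.31 with Meg3, 0.64 with Rian and 0.33 with Mirg, so its r with Rian was near that of Rian and Mirg. Without MEF these 3 were 0.30, 0.66 and 0.72. Dio3 had 0.09 with Meg3, 0.03 with Rian and -0.02 with Mirg. The r of 0.85 between Dlk1 and Rtl1 was 0.57 without MEF, so it rested in part on that library. Against 10159 other genes reaching 10 FPKM in some library, Meg3 was most like Tnfaip3 (r = 0.91), Ept1 (0.90), Sra1 (0.89), Fbrs (0.89) and Ilvbl (0.89), and 104 genes reached an r of 0.8. Those 104 were thus more like Meg3 than Rian or Mirg was. Rian was most like Clk4 (0.84), Lrif1 (0.80), Srsf5 (0.79), Rp2h (0.78) and Usp16 (0.78). Mirg was most like Hopx (0.89), Trim68 (0.89), Haus7 (0.86), Tctn3 (0.81) and Vegfa (0.80). An r of 0.8 was reached by 1 gene for Rian, 5 for Mirg and 66 for Dlk1. Dlk1 was most like Piezo2 (0.93), Crispld2 (0.92), Col15a1 (0.91), Zfp521 (0.91) and Slc6a17 (0.90), all 5 highest in MEF. Without MEF these r were 0.59 (Slc6a17) to 0.83 (Crispld2), and Spearman's rho over all 14 libraries was 0.12 (Slc6a17) to 0.71 (Piezo2), so the likeness rested in part on MEF.

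The cluster genes and the fibroblast markers were set side by side as a percent of the MEF level. In CiPSC Dlk1 stood at 0.720% and Meg3 at 13.8%, while the median of 16 fibroblast markers was 0.0306% and the highest 1.83%. Of the markers, 2 were at or above Dlk1 there. In ESC Dlk1 stood at 0.236%, Meg3 at 21.8%, the median marker at 0.0189% and the highest at 2.28%. Meg3, Rian and Mirg thus stood at a larger share of the MEF level in both lines than any of the 16 markers did. Lum, Dcn and Twist2 were at 0 in both. The markers were chosen as fibroblast genes, so their low share in pluripotent lines follows in part from that choice. ESC did not come from these MEF. In the stage III libraries of day 4, day 6 and day 15, all 16 markers kept a larger share of the MEF level than Dlk1, which stood at 0.263% at day 6, with a median marker of 4.19%.

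**Figure D5:**
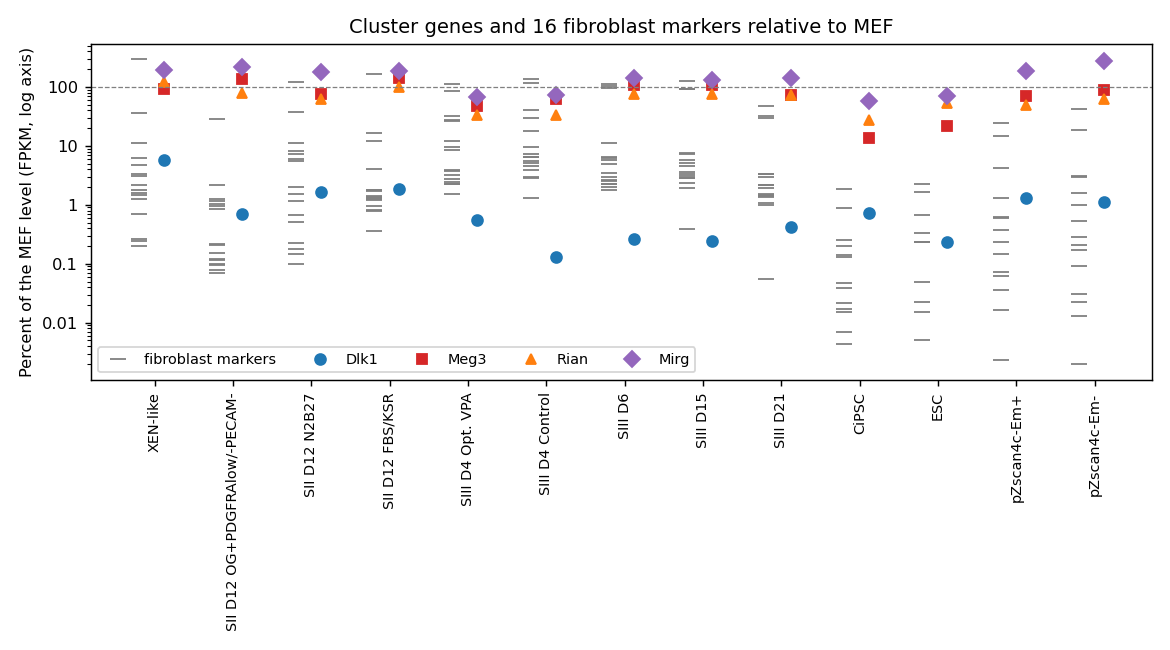
Level of Dlk1, Meg3, Rian and Mirg and of each of 16 fibroblast markers (grey dashes) as a percent of the MEF level, on a log axis, in the 13 other libraries along the horizontal axis. Markers at 0 are not drawn. In CiPSC Meg3 is at 13.8% and the highest marker at 1.83%, and at stage III day 6 Dlk1 is at 0.263%, below all markers.

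Factors that set or keep the imprints were followed as a list of 19 genes. In CiPSC against stage III day 21, where the long RNAs dropped, 3 were higher and 2 lower of 19 tested. Over all entries 4.88% were higher and 15.4% lower. The list median was 0.04 in log2 and that of all entries -0.18. The 3 higher ones were the de novo methyltransferases and their partner. Dnmt3a had 64.4 FPKM in CiPSC and 11.5 FPKM at day 21. Dnmt3l, the cofactor without enzyme activity, had 211 FPKM in CiPSC and 44.6 FPKM at day 21. Dnmt3b had 48.2 FPKM in CiPSC and 14.4 FPKM at day 21. The 2 lower ones were Tet3 and Suz12. Tet3 had 1.72 FPKM in CiPSC and 4.93 FPKM at day 21, and Suz12 86.9 FPKM in CiPSC and 191 FPKM at day 21. In CiPSC against ESC, Dnmt3l was higher (101 FPKM in ESC). Tet1, a dioxygenase that oxidises methylated cytosine, was lower, at 25.3 FPKM in CiPSC and 65.3 FPKM in ESC. These were the 2 calls of 19, where 1.79% of all entries were higher and 4.77% lower. Zfp57 had 266 FPKM in CiPSC and 390 FPKM in ESC, and Dppa3, which protects imprints in the zygote, 21.7 FPKM in CiPSC and 29.0 FPKM in ESC. Zfp57 was 6.76-fold higher at stage III day 15 (208 FPKM) than at day 6 (30.8 FPKM), a step at which no cluster gene was called. In XEN-like cells against MEF 5 of 18 were higher and 3 lower, where 18.8% of all entries were higher and 17.5% lower, with a list median of 0.83 against 0.21. Dnmt3b had 14.4 FPKM in XEN-like cells and 1.39 FPKM in MEF, and Aff3, which binds the control region of this cluster, had 1.90 FPKM in XEN-like cells and 13.3 FPKM in MEF.

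Genes outside the cluster on chromosome 12 were read from 17 named neighbours, of which 16 were in the table. In XEN-like cells against MEF 3 were higher and 2 lower of 16, beside 18.8% and 17.5% of all entries. The list median was 0.47, against 0.21 over all entries. Begain, the nearest coding neighbour listed before Dlk1 and ending 384 kb from it, was 14.4-fold lower, at 0.959 FPKM in XEN-like cells and 13.8 FPKM in MEF. It had 3.10 FPKM at stage III day 15 and 0.183 FPKM at day 6. Ppp2r5c, a phosphatase subunit 166 kb beyond Dio3, had 20.1 FPKM in XEN-like cells and 25.1 FPKM in MEF. In CiPSC against day 21 the list median was -0.18, equal to that of all entries, and 2 of 15 were lower and 0 higher. Over all entries 15.4% were lower and 4.88% higher. Wars, a tRNA synthetase, was 2.56-fold lower and Dync1h1, the dynein heavy chain, 2.46-fold lower.

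Dlk1 is related to the Notch ligands, so 18 Notch pathway genes were listed. In XEN-like cells against MEF 7 were lower and 3 higher of 13 tested, beside 17.5% and 18.8% of all entries. The list median was -1.47, against 0.21 over all entries. Among ligands, Jag1 had 1.47 FPKM in XEN-like cells and 29.9 FPKM in MEF, whereas Jag2 was 12.1-fold higher, at 2.44 FPKM in XEN-like cells and 0.202 FPKM in MEF. The receptor Notch1 had 9.01 FPKM in XEN-like cells and 32.5 FPKM in MEF. Dlk2, the closest relative of Dlk1, had 0.0895 FPKM in XEN-like cells and 2.17 FPKM in MEF. The targets Nrarp (34.8 FPKM in XEN-like cells, 0.119 FPKM in MEF) and Hey1 (19.5 FPKM in XEN-like cells, 1.35 FPKM in MEF) were higher, and the target Heyl was listed at 0 in XEN-like cells and had 2.33 FPKM in MEF. In CiPSC against ESC 0 of 13 were called, where 1.79% of all entries were higher and 4.77% lower.

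For Dio3, 11 thyroid hormone genes were listed. In stage II N2B27 against FBS/KSR, where Dio3 differed most, 1 of 6 tested was called, and it was higher. Over all entries 10.7% were higher and 7.3% lower. Hr, a corepressor regulated by the hormone in brain, had 1.83 FPKM in N2B27 and 0.288 FPKM in FBS/KSR. The activating deiodinase Dio2 stayed at 0.388 FPKM in N2B27 and was at 0 in FBS/KSR. In XEN-like cells against MEF 3 of 6 were lower and 1 higher, with a median of -0.63 against 0.21 over all entries (17.5% lower, 18.8% higher). The receptor Thra had 11.5 FPKM in XEN-like cells and 74.2 FPKM in MEF.

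Rtl1 belongs to a family of genes derived from retrotransposon Gag proteins. The list held 19 symbols, older and newer names of the same genes among them, and 10 were in the table. Of these, 2 were higher and 4 lower of 8 tested in XEN-like cells against MEF, beside 18.8% and 17.5% of all entries, and the median was -0.54 against 0.21. Peg10, an imprinted placental gene, was 72.8-fold higher, at 848 FPKM in XEN-like cells and 11.6 FPKM in MEF. In CiPSC against day 21 Peg10 was 19.2-fold lower, at 6.87 FPKM in CiPSC and 132 FPKM at day 21. It was the 1 call of 4, where 15.4% of all entries were lower and 4.88% higher.

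Imprinted genes of other clusters were listed as 26, with 25 in the table. In CiPSC against stage III day 21, 10 were lower and 5 higher of 22 tested, beside 15.4% and 4.88% of all entries. The list median was -0.79, against -0.18 over all entries. H19, the maternally expressed non-coding RNA of the Igf2 cluster, had 21.7 FPKM in CiPSC and 830 FPKM at day 21, and Igf2, a growth factor, 0.261 FPKM in CiPSC and 49.3 FPKM at day 21. In CiPSC against ESC 5 were lower and 1 higher of 21, beside 4.77% and 1.79% of all entries, with a median of -0.44 against -0.09. Grb10, an adaptor that restrains growth, had 5.91 FPKM in CiPSC and 39.1 FPKM in ESC, and Snrpn, a splicing protein gene, 132 FPKM in CiPSC and 61.5 FPKM in ESC. In XEN-like cells against MEF 7 were lower and 2 higher of 21, with 17.5% and 18.8% over all entries and a median of -0.30 against 0.21. H19 had 261 FPKM in XEN-like cells and 2811 FPKM in MEF. Mest, a hydrolase gene, had the largest difference of the list between the stage II media, at 223 FPKM in N2B27 and 5.68 FPKM in FBS/KSR.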

How the data were processed

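Bulk RNA-seq of 14 libraries was used, 1 per group. The values are FPKM that the authors deposited in 1 table of 35275 entries under 35203 distinct names; per the labels, total RNA went into NEBNext Ultra libraries. Per the submitters' processing notes the build was mm10, and FastQC, Cell Ranger 2.0.1, Bismark and Bowtie2 are named without saying which served the bulk data. For the FPKM table the aligner, counting tool, annotation and strandedness were not given in the sources used here.

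Whole reads and library totals were recovered from the FPKM steps: for all 1311 entries checked, the implied gene length was whole within 0.001 bases. Levels have exact 95% Poisson intervals and ratios exact binomial ones. Libraries were compared singly as log2(FPKM + 1), called at 2-fold among entries at 1 FPKM or more in either, in 15 comparisons. The calling and recovery were tested on simulated data. Alternatives were a pseudocount of 0.1, a filter at 5 FPKM or none, median-of-ratios and TPM scaling. Genes named are the 6 cluster genes, Dio3os, the 5 genes most correlated with each cluster gene reaching 10 FPKM, and, of each list, up to 4 called genes with the largest difference plus those whose role is described. The cluster genes and lists were chosen with earlier results of these data known. Python 3.11.15, numpy 2.4.6, scipy 1.17.1, pandas 2.3.3 and matplotlib 3.10.9 were used.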

Additional observations from a re-analysis of the deposited data

Results flagged for a closer look

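Meg3 and Dio3 moved in opposite directions in the 2 stage II media relative to the same XEN-like library. Dio3 was 5.72-fold its XEN-like level in N2B27 and 0.403 of it in FBS/KSR. Meg3 was 0.804 of its XEN-like level in N2B27 and 1.53-fold it in FBS/KSR. Each value comes from 1 library, the shared XEN-like library enters both, and the difference was not tested.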

How the results depend on the processing

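No called difference of a cluster gene changed sign under any of the alternatives. Median-of-ratios scaling changed the sign of 6 uncalled differences and TPM scaling of 2. The number of cluster genes called changed in these cases. With a pseudocount of 0.1 it was 2 instead of 1 for XEN-like against MEF, FBS/KSR against XEN-like, stage III day 6 against N2B27, and CiPSC against ESC, and 4 instead of 3 for CiPSC against MEF. With a filter at 5 FPKM it was 1 instead of 2 for day 6 against FBS/KSR, and 0 instead of 1 for CiPSC against ESC and for Opt. VPA against Control, because low Dlk1 or Dio3 was then not tested. On the TPM scale it was 2 instead of 1 for CiPSC against ESC and for N2B27 against FBS/KSR, 3 instead of 2 for N2B27 against XEN-like, and 4 instead of 3 for CiPSC against MEF. With median-of-ratios scaling it was 1 instead of 2 for OG+PDGFRAlow/-PECAM- against N2B27. Spearman's rho was 0.859 for Meg3 and Rian and 0.635 for Meg3 and Mirg, and Pearson's r for Rian and Mirg was 0.815 without the reporter libraries; the cause was not tested. Counts over all entries were 1.12 to 1.88 times those reported with the pseudocount of 0.1, and 0.592 to 0.762 times with the 5 FPKM filter. Scaling by median of ratios shifted the median entry by -0.24 in XEN-like against MEF, 0.18 in CiPSC against day 21, 0.13 in CiPSC against ESC and -0.11 in Opt. VPA against Control. TPM shifted it by -0.29 in CiPSC against MEF, 0.14 in XEN-like against ESC, -0.11 in CiPSC against day 21 and -0.12 in CiPSC against ESC. No paired analysis was possible because each group has 1 library. Depth limits Dio3, Rtl1 and low Dlk1 most, where a level can rest on 7 reads.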
